A study of Homo sapiens with 14 samples.

Results

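The genes described here encode 10 enzymes that write or erase marks of promoters and enhancers, namely the H3K4 methyltransferases KMT2A, KMT2B, KMT2C, KMT2D, SETD1A and SETD1B, the demethylases KDM6A and KDM5B, and the acetyltransferases EP300 and CREBBP. They are 10 of the 20033 protein-coding genes on the autosomes, X and Y. The choice was made by function, with earlier results of these data known. A KLF4 peak was assigned to a gene if its summit lay between 10 kb upstream of the transcription start site (TSS) and 2 kb past the gene end. KLF4 ChIP-seq was performed in BEAS-2B cells, an established human bronchial epithelial line, with 1 library for each of 4 conditions. WT control and Nrf2 KO control cells received no As3+, whereas WT As3+ and Nrf2 KO As3+ cells were treated with 1 µM As3+ (trivalent arsenic) for 6 h. Nrf2 KO cells were derived with CRISPR-Cas9 guides to exon 2 of the Nrf2 gene and were colonies without Nrf2 protein. The WT cells were colonies of the same procedure that still expressed Nrf2. An input for KLF4 from untreated normal cells belongs to the series, and this input, the H3K4me1 and H3K27Ac libraries and the remaining input were not analysed here. There was no replicate of any condition, so differences between conditions have no replicate check, no p-value is given, and library and condition cannot be told apart.

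H3K4 methyltransferases of this family work in large complexes around a shared core. KMT2A, KMT2B, SETD1A and SETD1B mainly place H3K4me2 and H3K4me3 at promoters, while KMT2C and KMT2D place H3K4me1 at enhancers. KDM6A, a subunit of the KMT2C and KMT2D complexes, removes methyl groups from H3K27, and KDM5B removes them from H3K4. EP300 and CREBBP acetylate H3K27 at active enhancers and promoters. KLF4 is a zinc-finger factor of the epithelial and stem cell programmes that binds GC-rich CACCC elements, and Nrf2 is the regulator of the oxidative stress response that acts through antioxidant response elements (ARE).

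The full lists numbered 751 (WT control), 29870 (WT As3+), 76545 (Nrf2 KO control) and 130 peaks (Nrf2 KO As3+). Each listed peak carries a fold enrichment, that is, signal over local background at the summit, and from fold and p the number of fragments over the summit can be worked out. The median number of fragments per summit was 25, 10, 7 and 19 in the same order, and the lowest background at a listed peak was 1.90, 0.757, 0.491 and 1.64 fragments. These minima come from lists of very different length, so they do not give the depth of the libraries. Folds of different libraries rest on different backgrounds, so they are given side by side and not compared.

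The sites that carry the results are shown here in GRCh38/hg38, on the strand of the gene. The KMT2A promoter (chr11:118436256-118436422) holds the summits of all 3 libraries with a peak there, and it was the strongest site of the 10 genes. The promoter windows of KMT2B (chr19:35717482-35717602), KMT2C (chr7:152436784-152436904), KDM6A (chrX:44872582-44872702), EP300 (chr22:41092009-41092129) and CREBBP (chr16:3881170-3881290) are centred on WT As3+ summits that also lay in Nrf2 KO control peaks. The window at the KMT2D 3′ end (chr12:49018808-49018928) lies just past the gene, beside the start of PRKAG1, and had a peak in the same 3 libraries as KMT2A. Capitals mark the words searched, which are the KLF words CCACACCC and CCACGCCC, the GC box GGGCGG, the AP-1 word TGAGTCA or TGACTCA and the ARE core TGACNNNGC on both strands, where an ARE core and an AP-1 word can overlap.
KMT2A promoter: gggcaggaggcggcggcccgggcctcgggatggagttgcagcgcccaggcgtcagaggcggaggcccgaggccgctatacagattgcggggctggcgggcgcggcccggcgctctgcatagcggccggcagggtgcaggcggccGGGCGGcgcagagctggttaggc
KMT2B promoter: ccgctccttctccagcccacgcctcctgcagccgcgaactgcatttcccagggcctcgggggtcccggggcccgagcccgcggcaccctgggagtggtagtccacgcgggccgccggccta
KMT2C promoter: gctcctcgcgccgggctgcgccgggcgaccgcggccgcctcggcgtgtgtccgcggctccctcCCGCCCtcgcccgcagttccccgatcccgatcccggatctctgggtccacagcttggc
KDM6A promoter: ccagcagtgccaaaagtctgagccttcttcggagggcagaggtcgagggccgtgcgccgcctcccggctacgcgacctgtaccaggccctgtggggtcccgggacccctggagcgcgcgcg
EP300 promoter: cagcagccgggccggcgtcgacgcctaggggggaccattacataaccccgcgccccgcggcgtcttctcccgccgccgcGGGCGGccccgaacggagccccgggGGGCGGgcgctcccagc
CREBBP promoter: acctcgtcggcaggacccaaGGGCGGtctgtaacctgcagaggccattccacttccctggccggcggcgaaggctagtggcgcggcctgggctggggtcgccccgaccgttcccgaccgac
KMT2D 3′ end: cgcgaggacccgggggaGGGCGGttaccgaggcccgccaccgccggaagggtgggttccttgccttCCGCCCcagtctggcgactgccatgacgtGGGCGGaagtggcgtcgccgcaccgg

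All 10 genes had KLF4 peaks in WT As3+ and in Nrf2 KO control cells, 2 had 1 peak each in WT control cells, and none had a peak in Nrf2 KO As3+ cells. In the order WT control, WT As3+, Nrf2 KO control and Nrf2 KO As3+, the windows held 2, 37, 88 and 0 peaks. Of all protein-coding genes, 2.51%, 66.5%, 81.0% and 0.439% had a peak in the window in these libraries. Among the 11450 genes with a window at least as long as the shortest of the 10 (32.9 kb), the share was 73.3% in WT As3+ and 87.4% in Nrf2 KO control cells. The 10 of 10 seen here thus stand beside a background that was already high in both libraries. The density was 3.09 peaks per 100 kb of window in WT As3+ cells against 1.93 for all genes, and 7.35 against 4.50 in Nrf2 KO control cells.

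Per gene, the WT As3+ library held 3 peaks at KMT2A, 2 at KMT2B, 3 at KMT2C, 4 at KMT2D, 5 at SETD1A, 7 at SETD1B, 2 at KDM6A, 5 at KDM5B, 3 at EP300 and 3 at CREBBP. The Nrf2 KO control library held 3, 6, 11, 7, 13, 18, 5, 4, 7 and 14 in the same order. The count was higher in Nrf2 KO control than in WT As3+ cells for 8 genes, equal for KMT2A and lower for KDM5B, and 61.6% of all protein-coding genes had more peaks in Nrf2 KO control cells. The ratio of the counts summed over genes, Nrf2 KO control over WT As3+, was 2.38 for the 10 genes and 2.34 for all protein-coding genes. All 10 genes had more peaks in WT As3+ than in WT control cells, as did 66.0% of all genes, and all 10 had fewer in Nrf2 KO As3+ than in Nrf2 KO control cells, as did 81.0% of all genes. Both applied to 63.5% of all genes.

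**Figure D1:**
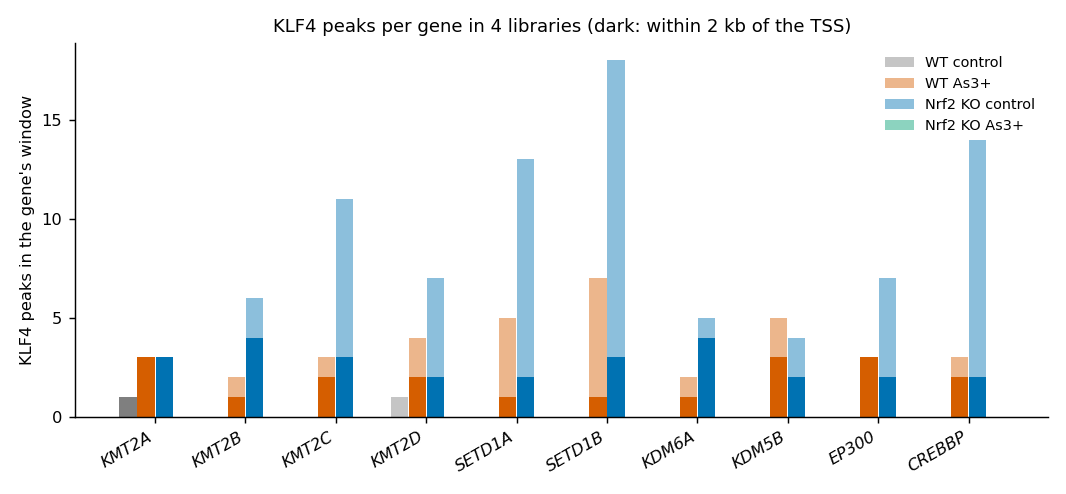
Number of KLF4 peaks in the window of each gene (vertical axis) for the 10 genes, 1 bar per library, with the dark part of a bar giving the peaks within 2 kb of the canonical TSS. SETD1B reaches 18 peaks in Nrf2 KO control cells, only KMT2A and KMT2D have a bar in WT control cells (1 peak each), and Nrf2 KO As3+ has no bar at any gene.

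The 10 start sites were compared next. A peak within 2 kb of the canonical TSS was found at 1 gene in WT control, at 10 in WT As3+, at 10 in Nrf2 KO control and at none in Nrf2 KO As3+ cells. The shares of all genes were 0.794%, 52.5%, 67.5% and 0.195%. With peaks of −log10 q of at least 5 only, 6 genes kept a promoter peak in WT As3+ cells and 9 in Nrf2 KO control cells, against 28.6% and 38.5% of all genes. The promoters held 19 of the 37 WT As3+ peaks (51.4%) and 27 of the 88 Nrf2 KO control peaks (30.7%). In the whole lists, 45.3% and 27.3% of peaks lay within 2 kb of a canonical protein-coding TSS. The whole lists also hold peaks outside gene windows, so the members' shares cannot be set directly against these. At 9 of the 10 genes a WT As3+ promoter peak overlapped an Nrf2 KO control peak by at least 1 bp, and the closest summits of such pairs were 15 to 199 bp apart with a median of 49 bp. The same held for 85.4% of the 10526 genes with a WT As3+ promoter peak. SETD1A was the exception, with its nearest promoter summits 786 bp apart.

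**Figure D2:**
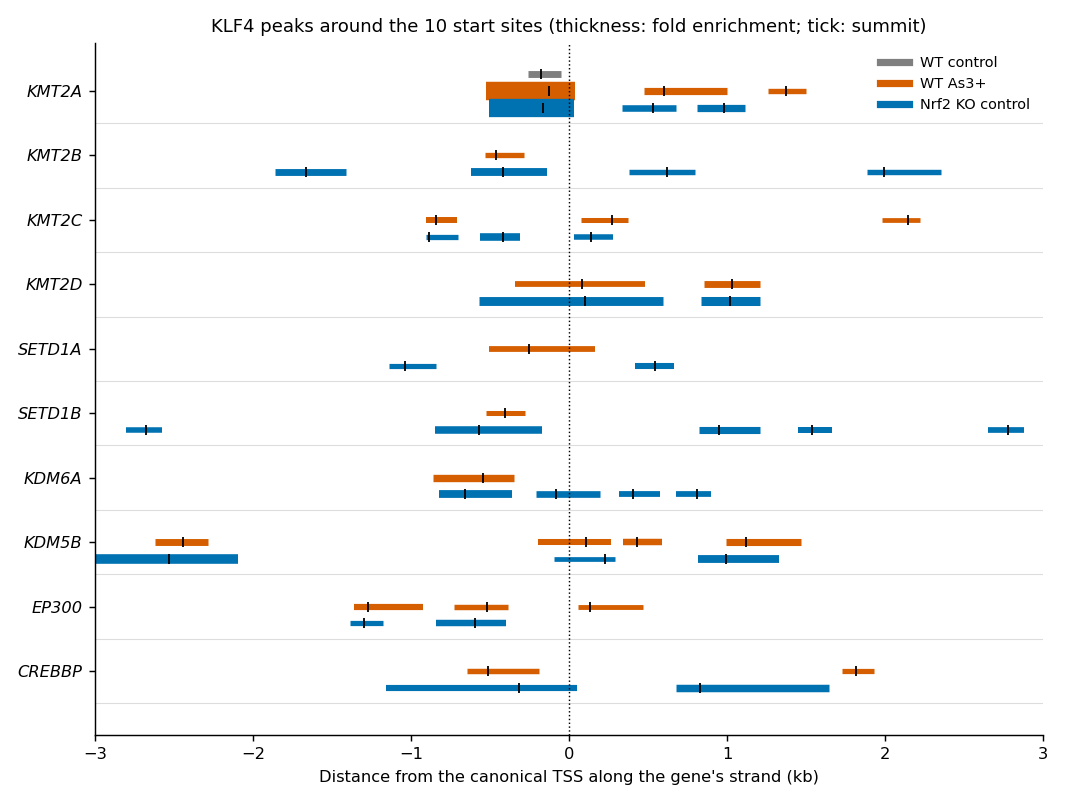
KLF4 peaks within 3 kb of the canonical TSS of each gene (horizontal axis, distance in kb along the gene's strand), as bars coloured by library, with thickness growing with fold enrichment and ticks at summits. KMT2A carries the thickest bars, 20.5-fold in WT As3+ and 20.3-fold in Nrf2 KO control cells, and SETD1A is the gene whose WT As3+ and Nrf2 KO control bars do not overlap.

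Among the promoter-type methyltransferases, KMT2A, the enzyme rearranged in many acute leukaemias, had the strongest peak of the 10 genes. Its promoter peak had 6.24-fold enrichment and 18 fragments in WT control cells (chr11:118436229-118436438), with the summit 176 bp upstream of the TSS. In WT As3+ cells it had 20.5-fold enrichment and 36 fragments (chr11:118435966-118436528), with the summit 130 bp upstream, and in Nrf2 KO control cells 20.3-fold enrichment and 30 fragments (chr11:118435983-118436522), with the summit 165 bp upstream. It ranked 86 of 751 by fold in the WT control, 20 of 29870 in the WT As3+ and 9 of 76545 in the Nrf2 KO control library, so the same site stood near the top of both long lists. The other KMT2A peaks lay in intron 1, at 600 and 1373 bp in WT As3+ cells and at 531 and 980 bp in Nrf2 KO control cells. Thus all KMT2A peaks lay within 2 kb of the TSS, and its gene of 90.4 kb held none further in.

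KMT2B, the closest relative of KMT2A, had a weaker promoter peak of 4.33-fold with 10 fragments, 461 bp upstream, in WT As3+ cells. The overlapping peak of Nrf2 KO control cells had 7.47-fold enrichment and 13 fragments, 422 bp upstream. Nrf2 KO control cells had further peaks 1664 bp upstream, in intron 1 at 617 bp and in exon 3 at 1991 bp. The highest WT As3+ peak of this window, 8.27-fold with 20 fragments (chr19:35740390-35740774), lay downstream of KMT2B and 35 bp from a TSS of the neighbour IGFLR1, which codes for a receptor.

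SETD1A and SETD1B, the catalytic subunits of the COMPASS complexes of SET1 type, had the highest peak densities, 12.7 and 17.2 peaks per 100 kb in WT As3+ and 33.0 and 44.3 in Nrf2 KO control cells. In WT As3+ cells much of this lay at neighbouring genes. In Nrf2 KO control cells SETD1A also had 4 gene body peaks and SETD1B 10. In the SETD1A window the single own promoter peak in WT As3+ cells had 4.89-fold enrichment and 18 fragments, 252 bp upstream. The other 4 peaks lay within 2 kb of a start site of ORAI3, a calcium channel gene, or HSD3B7, a gene of bile acid synthesis. All 4 overlapped Nrf2 KO control peaks, and the highest Nrf2 KO control peak of the window, 5.46-fold with 11 fragments, lay 25 bp from a TSS of ORAI3. The SETD1A promoter peaks of Nrf2 KO control cells were 4.15-fold at 1038 bp upstream and 5.23-fold at 541 bp in intron 1, with 7 and 9 fragments.

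At SETD1B the promoter peak had 3.95-fold enrichment and 8 fragments, 407 bp upstream, in WT As3+ cells. In Nrf2 KO control cells it had 7.07-fold enrichment and 12 fragments, 574 bp upstream. These summits were 199 and 32 bp from a TSS of the neighbouring gene RHOF, nearer than to that of SETD1B. The highest WT As3+ peak, 7.52-fold with 21 fragments (chr12:121799617-121800501), lay 3879 bp upstream of SETD1B and 547 bp from a TSS of the neighbour RHOF. The highest Nrf2 KO control peak was inside the gene, in intron 6, with 8.51-fold enrichment and 16 fragments (chr12:121811359-121812237). It overlapped a WT As3+ peak of 3.76-fold with 10 fragments, and was the only site away from promoters with a peak in both libraries.

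The enhancer methyltransferases differed in where their peaks lay. KMT2D had promoter peaks in exon 1 at 84 and 1033 bp in WT As3+ cells (4.87-fold with 17 fragments and 6.24-fold with 15). In Nrf2 KO control cells they lay at 99 and 1015 bp (8.73-fold with 23 fragments and 8.90-fold with 19), so that the summits of the pairs lay 15 and 18 bp apart. At its 3′ end a peak was listed in 3 libraries. It had 3.37-fold enrichment and 19 fragments in WT control cells (chr12:49018876-49019133, in the 3′ UTR of exon 55), 8.76-fold and 28 fragments in WT As3+ cells (chr12:49018577-49019161) and 9.69-fold and 22 fragments in Nrf2 KO control cells (chr12:49018478-49019072). These summits were 171, 12 and 5 bp from a TSS of DDN-AS1, a long non-coding RNA gene, and 244, 61 and 68 bp from a TSS of PRKAG1, which encodes a subunit of the AMP-activated kinase. The WT control peak, which ranked 666 of 751 by fold, was the only one of the KMT2D window in that library, and it did not lie at the KMT2D promoter.

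KMT2C had promoter peaks of 5.11-fold at 841 bp upstream (11 fragments) and 3.96-fold at 273 bp (7 fragments) in WT As3+ cells. In Nrf2 KO control cells they were 4.27-fold at 890 bp upstream, 7.14-fold at 419 bp upstream and 4.57-fold at 138 bp, with 7 to 11 fragments. The 8 remaining Nrf2 KO control peaks lay in introns 1, 3 and 9, from 25147 to 176614 bp into the gene, and none overlapped a WT As3+ peak. Parts of KMT2C have near-identical copies elsewhere in the genome. Of the intronic windows of 200 bp, 7 of the 8, and both upstream promoter windows of Nrf2 KO control cells, matched another place with at least 95% identity over at least 75 bp, among them chromosome 21 (97.5% over 200 bp) and chromosome 22 (97.0% over 199 bp). The WT As3+ promoter window at 841 bp upstream also matched chromosome 22 (96.0% over 200 bp). Reads of 75 nt at these sites may come from another copy, so the KMT2C peaks at the matching windows are uncertain. The overlapping promoter peaks at 273 bp in WT As3+ and 138 bp in Nrf2 KO control cells had no such match.

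Of the demethylases, KDM6A had its promoter peak 546 bp upstream in WT As3+ cells (6.83-fold, 11 fragments) and 662 bp upstream in Nrf2 KO control cells (7.38-fold, 10 fragments). Nrf2 KO control cells had 3 more peaks within 1 kb of its TSS, at 81 bp upstream, 406 bp and 806 bp, with 4.85 to 6.00-fold enrichment and 7 or 8 fragments each. Each library had 1 peak deep in this gene of 239.6 kb, at 126110 bp in WT As3+ and at 209118 bp in Nrf2 KO control cells, with 6 and 5 fragments.

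KDM5B was the only gene with fewer peaks in Nrf2 KO control cells than in WT As3+ cells. In WT As3+ cells 3 promoter peaks lay at 105, 428 and 1118 bp, with 5.20, 5.74 and 6.50-fold enrichment and 12 to 18 fragments. In Nrf2 KO control cells 2 peaks lay there, 3.6-fold at 225 bp and 7.42-fold at 991 bp, with 8 and 12 fragments. The highest Nrf2 KO control peak of the window, 9.61-fold with 17 fragments and 1284 bp wide (chr1:202810518-202811801), lay 2535 bp upstream of KDM5B, and its summit was 2 bp from a TSS of PCAT6, a long non-coding RNA gene. The WT As3+ peak at this site had 6.30-fold enrichment and 15 fragments, 8 bp from the same TSS.

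The acetyltransferase genes had modest promoter peaks in both libraries. EP300 peaks lay 1273 and 523 bp upstream and 132 bp downstream of the TSS in WT As3+ cells, with 5.39, 4.44 and 3.76-fold enrichment and 16, 12 and 10 fragments. In Nrf2 KO control cells they lay 1301 and 599 bp upstream, with 4.19 and 5.72-fold enrichment and 10 and 14 fragments. Both upstream sites of EP300 were thus listed in both libraries.

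CREBBP, the paralogue of EP300, had promoter peaks of 4.48-fold at 517 bp upstream and 4.19-fold at 1816 bp in WT As3+ cells, with 9 fragments each. In Nrf2 KO control cells the peaks were broader, 1207 bp with 5.34-fold enrichment and 11 fragments at 318 bp upstream, and 968 bp with 7-fold enrichment and 13 fragments at 830 bp in exon 1. A further WT As3+ peak 4667 bp upstream (4.64-fold, 9 fragments) lay in sequence with 664 copies in the genome.

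**Figure D3:**
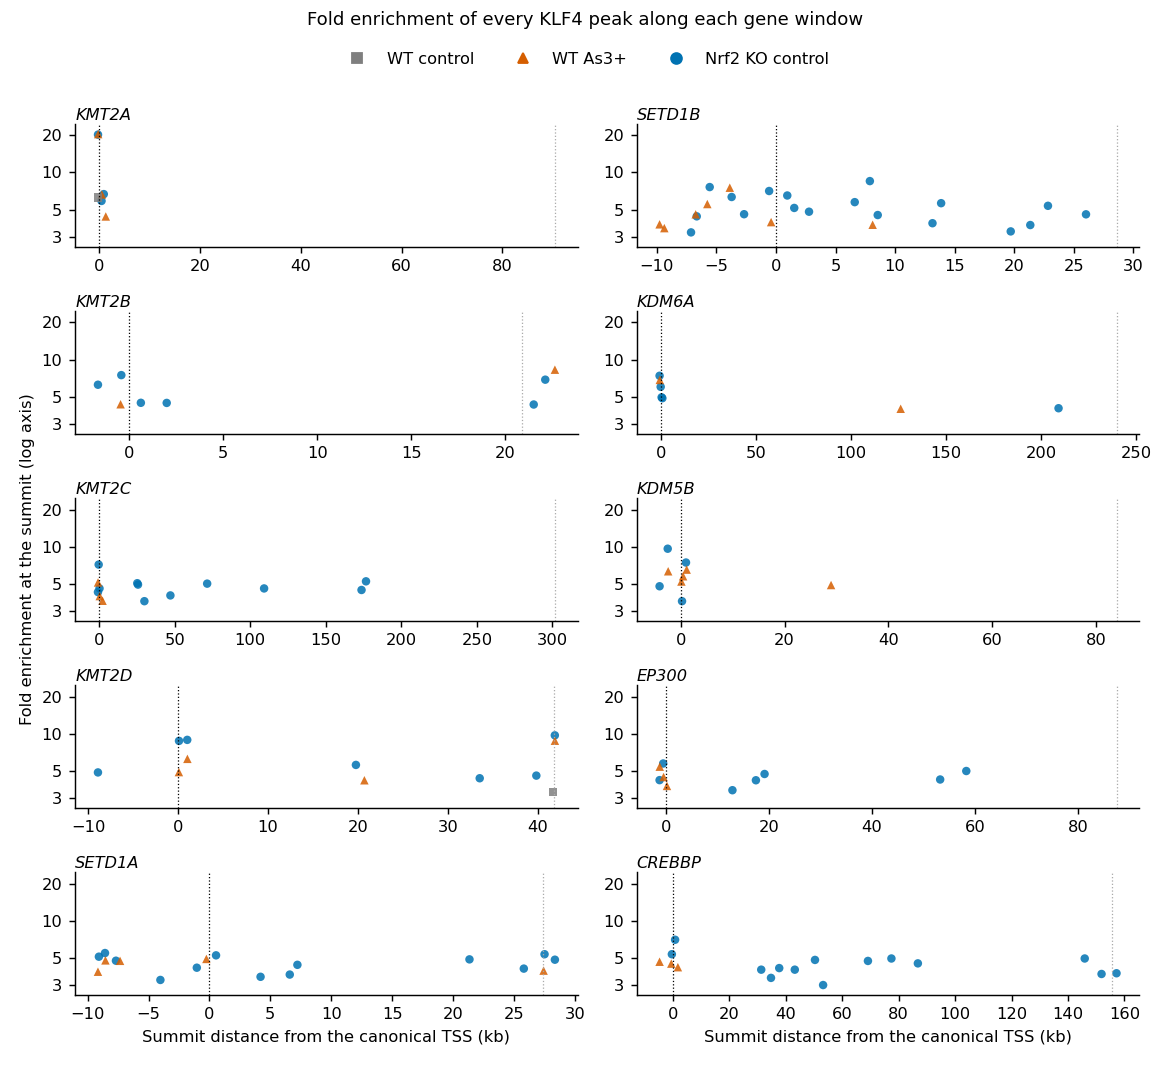
Fold enrichment at the summit (vertical log axis) against the distance of the summit from the canonical TSS (horizontal axis, kb), 1 panel per gene and 1 point per peak, with dotted lines at the TSS (black) and one gene length downstream of it (grey). Points of Nrf2 KO control cells spread through KMT2C, EP300, CREBBP and SETD1B at mostly 3 to 6-fold, while KMT2A has its points at the TSS alone, up to 20.5-fold.

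The long lists also differed inside the genes. Gene body peaks, those over 2 kb from the canonical TSS and from the TSS of any other protein-coding or long non-coding RNA gene, numbered 5 of 37 (13.5%) in WT As3+ and 42 of 88 (47.7%) in Nrf2 KO control cells. For the whole lists a stricter rule was used, which also leaves out peaks within 2 kb of an alternative start of the same gene. By that rule 15.1% and 24.6% of the whole lists lay inside protein-coding genes. The share was thus higher in Nrf2 KO control cells in the whole lists too. The members' 47.7% follows the wider rule and counts only peaks inside the gene windows, so it cannot be set directly against 24.6%. Gene body peaks of the members were found at CREBBP (11), SETD1B (10), KMT2C (8), EP300 (5), SETD1A (4), KMT2D (3) and KDM6A (1) in Nrf2 KO control cells. KMT2A, KMT2B and KDM5B had none there. In WT As3+ cells KMT2C, KMT2D, SETD1B, KDM6A and KDM5B had 1 each. The 42 peaks had a median of 4.50-fold enrichment, 7 fragments and a width of 227 bp, against 5.87-fold, 10 fragments and 387 bp for the 27 promoter peaks of the same library. Of the 42 windows of 200 bp, 15 matched another place in the genome by the rule given for KMT2C, against 2 of the 27. The 15 lay in KMT2C, CREBBP, EP300 and KDM6A, with up to 2686 copies at 1 EP300 site. These peaks are uncertain as well. A −log10 q of at least 5 was reached by 1 of the 42, the peak in SETD1B intron 6, and by 15 of the 27. Of all Nrf2 KO control peaks in gene bodies by the stricter rule, 11.7% reached it. Of all Nrf2 KO control peaks within 2 kb of a canonical TSS, 39.4% did.

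Sharing between the libraries followed the same division. Of the 37 WT As3+ peaks, 25 overlapped an Nrf2 KO control peak (67.6%, against 55.6% of the whole WT As3+ list). Among these 25 were 14 of 19 own promoter peaks, 10 of 12 peaks at neighbouring promoters and 1 of 5 gene body peaks. The exact Clopper-Pearson 95% interval of the 67.6% was 50.2 to 82.0%. It takes the peaks as independent, although they cluster in 10 genes of 1 library, so it does not measure the spread between genes. The same limit holds for the next interval. Conversely, 26 of the 88 Nrf2 KO control peaks (29.5%, interval 20.3 to 40.2%) overlapped a WT As3+ peak, against 21.7% of the whole list, with 15 of 27 own promoter, 10 of 17 neighbouring promoter and 1 of 42 gene body peaks. Over the whole Nrf2 KO control list, 50.5% of peaks within 2 kb of a canonical TSS overlapped a WT As3+ peak. Of its gene body peaks by the stricter rule, 7.20% did. The members' shares had the order of the whole list, with promoters above gene bodies.

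The Nrf2 KO control list was also read at the length of the WT As3+ list, which by construction leaves out its weaker peaks and brings the totals together. When the Nrf2 KO control list was shortened to its 29870 strongest peaks by −log10 p, the length of the WT As3+ list, 36 of the 88 peaks remained, next to 37 in WT As3+ cells. Over all protein-coding genes the counts were then 30796 and 31238, and 65.3% and 66.5% of genes had a peak. All 10 genes kept a promoter peak. Of the own promoter peaks 18 of 27 remained, and of the gene body peaks 7 of 42. Gene body peaks were thus 19.4% of the 36 kept peaks, next to 47.7% of the 88 and 13.5% in WT As3+ cells. CREBBP went from 14 peaks to 2 and EP300 from 7 to 1, whereas SETD1B kept 10 of 18 and KMT2A all 3.

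**Figure D4:**
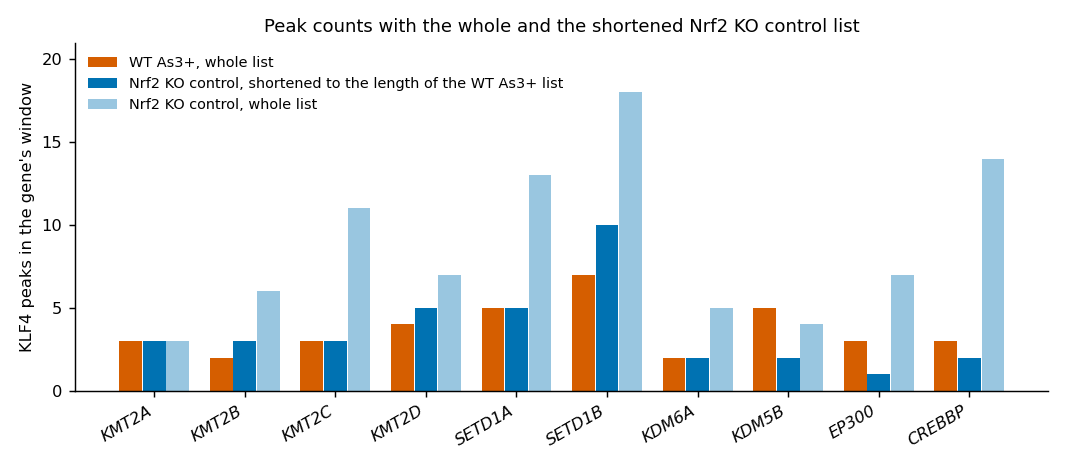
Number of KLF4 peaks per gene (vertical axis) in the whole WT As3+ list, in the Nrf2 KO control list shortened to the same length, and in the whole Nrf2 KO control list. With equal lengths the totals are 37 and 36, and CREBBP and EP300 drop to 2 and 1 peaks.

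Of the words searched under the summits, the GC box was the most frequent. It was present in 20 of 37 WT As3+ windows of 200 bp (54.1%, against 39.0% of the whole list) and in 25 of 88 Nrf2 KO control windows (28.4%, against 27.1%). The median GC content of the windows was 69.0% and 63.0%, against 64.5% and 61.5%. A KLF word was found in 1 WT As3+ window (2.70%, against 10.3%) and in 10 Nrf2 KO control windows (11.4%, against 9.27%). None of the own promoter windows of either library held a KLF word, and of the 10 in Nrf2 KO control cells 7 lay in gene bodies and 3 at neighbouring promoters. Of the 7, 5 had a copy elsewhere in the genome. The AP-1 word was found in 1 and 3 windows (2.70% and 3.41%, against 4.33% and 2.54%) and the ARE core in 4 and 8 (10.8% and 9.09%, against 9.36% and 9.17%). The ARE core is the sequence to which Nrf2 binds with its small Maf partners.

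RefSeq promoters (GRCh38.p14, 250 bases before to 50 after a start) were at hand for 9 of the 10 genes, not for SETD1B. The GC box was in the promoters of 8 of the 9, all but EP300, and in 45.0% of 35116 promoters. A KLF word was in none of the 9 and in 8.05% of all, the AP-1 word in that of KDM6A (4.95% of all), and the ARE core in those of KMT2D and CREBBP (13.3% of all).

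A choice of 4 further sites is shown, on the strand of the gene, and not every site with a rarer word. Among those not shown, the WT As3+ window 3879 bp upstream of SETD1B holds the only AP-1 word of that library and an ARE core. Further WT As3+ ARE cores lie in the 200-bp windows around the summits 461 bp upstream of KMT2B and 428 bp downstream of the KDM5B TSS. The printed stretches are 121 bases long, so the KMT2B promoter sequence above does not include its ARE core. The KMT2C window (chr7:152433798-152433918) is the only WT As3+ window with a KLF word, and it has a copy on chromosome 22 with 96.5% identity over 200 bp. The KDM5B window (chr1:202812464-202812584), 4103 bp upstream, holds a KLF word and an ARE core that overlaps an AP-1 word, and its Nrf2 KO control peak had 7 fragments. The KDM6A window (chrX:44873047-44873167) at 81 bp upstream holds an AP-1 word and a GC box. The SETD1B window (chr12:121811835-121811955) is shown as the strongest gene body site, and holds none of the words.
KMT2C intron 1: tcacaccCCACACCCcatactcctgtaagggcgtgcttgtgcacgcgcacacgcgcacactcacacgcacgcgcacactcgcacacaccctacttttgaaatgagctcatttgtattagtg
KDM5B upstream: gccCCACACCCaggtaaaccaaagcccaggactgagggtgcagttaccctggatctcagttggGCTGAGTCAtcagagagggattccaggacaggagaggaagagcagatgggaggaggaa
KDM6A start site: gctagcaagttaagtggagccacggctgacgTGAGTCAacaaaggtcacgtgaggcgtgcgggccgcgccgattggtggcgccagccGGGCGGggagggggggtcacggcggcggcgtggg
SETD1B intron 6: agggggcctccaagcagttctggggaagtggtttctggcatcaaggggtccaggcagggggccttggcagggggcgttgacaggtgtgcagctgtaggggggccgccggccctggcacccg

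The other genes of the pathway, 35 subunits, relatives and readers of these enzymes, were described by the same counts. In the WT As3+ library 33 of 35 had a peak in the window and 30 had one within 2 kb of the canonical TSS. These counts were 35 and 34 for Nrf2 KO control, 2 and 2 for WT control, and 0 and 0 for Nrf2 KO As3+ cells. Of all protein-coding genes, 66.5% and 52.5% had such peaks in WT As3+ cells. The shares were 81.0% and 67.5% in Nrf2 KO control, 2.51% and 0.794% in WT control, and 0.439% and 0.195% in Nrf2 KO As3+ cells. The 2 genes without a WT As3+ peak were RBBP5, a core subunit of the methyltransferase complexes, and NCOA1, a nuclear receptor coactivator. The WT control peaks were at the promoters of HCFC1, a subunit of the SETD1 and KMT2A complexes (3.37-fold, 19 fragments, 284 bp upstream of the TSS), and of CXXC1, the CpG-binding subunit of the SETD1 complexes (3.97-fold, 26 fragments, 205 bp upstream). Their highest WT As3+ peaks had 10.5-fold and 5.71-fold enrichment, and their highest Nrf2 KO control peaks 8.52-fold and 4.73-fold. The core subunits (WDR5, RBBP5, ASH2L and DPY30) held 7 and 17 peaks in WT As3+ and Nrf2 KO control cells, the subunits of particular complexes 25 and 33, other H3K4 methyltransferases (KMT2E and SETD7) 6 and 10, other demethylases 14 and 20, other acetyltransferases 17 and 30, and PRC2, which methylates H3K27, 8 and 10. The density over the 35 genes was 3.02 peaks per 100 kb in WT As3+ cells, against 1.93 for all protein-coding genes. In Nrf2 KO control cells it was 4.77, near the 4.5 of all protein-coding genes.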

How the data were processed

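KLF4 ChIP-seq peak lists of 4 BEAS-2B libraries were analysed, with conditions taken from the sample labels. The authors aligned 75-nt reads with BWA to GRCh38/hg38, and the submitters' processing notes name bcl2fastq 2.17. The peak caller is not given in the sources used here, and peaks were listed per library. The deposited lists give, for each summit, a fold enrichment (a ratio to the local background), a −log10 p and a −log10 q, and a score of 10 times the −log10 q. The lowest −log10 q was 1.00 to 1.03, so weaker signal is not listed. Library read totals are unknown.

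Only peaks of autosomes and sex chromosomes were kept (9, 86, 223 and 10 rows on other sequences were left out). Fragments (n) and background (λ) were solved from fold = (n + 1)/(λ + 1) and an upper Poisson tail, which fitted every −log10 p to within 0.000405. Genes and canonical TSS came from GENCODE 44. Copies were sought with blastn 2.17.0 (at least 95% identity over at least 75 bp). Members and lists were chosen with earlier results of these data known. All 10 members are described. Related genes are named if they had a WT control or Nrf2 KO As3+ peak, or as group members, and neighbours if their promoter held the highest peak of a window or a WT control peak. HSD3B7, RBBP5 and NCOA1 were named after their values were seen. Values of 1 group of related genes are not reported here. The solving of fragments and background, the counting of peaks in windows and the overlap rules were tested on simulated data. The other steps were not. Software was samtools 1.23.1, pysam 0.24.0 and Python 3.11.15 with pandas 2.3.3, scipy 1.17.1, matplotlib 3.10.9 and numpy 2.4.6.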

Additional observations from a re-analysis of the deposited data

Results flagged for a closer look

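The peak counts of As3+ and control libraries differed in opposite directions in WT and Nrf2 KO cells. The 10 windows held 35 more peaks in WT As3+ than in WT control cells (37 and 2), with more at each of the 10 genes. The difference between Nrf2 KO As3+ and Nrf2 KO control cells was −88 (0 and 88), with fewer at each of the 10 genes. The difference was not tested, since each condition has 1 library. The same opposite pattern was found at 12723 of 20033 protein-coding genes (63.5%).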

How the results depend on the processing

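Of 73 values recomputed under the alternatives, 61 stayed within 1.5 times the reported count or stayed at 0, and 12 did not. The 61 include every value of the Nrf2 KO As3+ library, all of them 0, which stricter cutoffs or shorter windows could not lower. At a −log10 q of 5 or more the windows held 1 WT control, 14 WT As3+ and 23 Nrf2 KO control peaks, 1 gene had a WT control peak, 6 genes had a WT As3+ promoter peak, and 11 WT As3+ peaks were shared with the Nrf2 KO control library. With lists of equal length the Nrf2 KO control windows held 36 peaks. With summits within 100 bp, 14 WT As3+ peaks were shared. In 100-bp windows the Nrf2 KO control summits held the ARE core in 5 and the GC box in 15 windows, the WT As3+ summits a KLF word in 0, and the WT control summits a GC box in 0. Each of these follows from the alternative's own construction (fewer peaks or shorter windows). Interval overlap, a window from 2 kb upstream, canonical transcript ends, a TSS window of 1 kb and any annotated TSS moved no count beyond 1.5 times. No paired analysis was possible because each condition has 1 library and no test was run, and for the same reason no replicate could be left out. Peaks with 4 to 10 fragments, the bulk of the gene body peaks, rest on few fragments.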
